A study of Mus musculus with 6 samples.

Results

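Chemokines and their receptors were read in the uterus of pregnant mice by 73 of the 45281 probes of an Illumina bead array. The members are the probes whose symbol in the deposited comparison table starts with Ccl, Ccr, Cxcl, Cxcr, Xcl or Xcr and a digit, or is Cx3cl1 or Cx3cr1. They stand for 53 gene symbols, of the 28922 gene names on the array, of which 35 are ligands and 18 are receptors. Uterine RNA was hybridised from mice at day 18.5 after mating (3 arrays), close to term, and at day 15.5 (3 arrays), when the pregnant uterus is quiescent. No genotype, strain, treatment or age of the mice is given in the labels used here. The labels call the tissue uterus, whereas the design text speaks of myometrium and of 18 biological replicates per day, and how many animals stand behind an array is not stated. The spread behind each p-value is that between these arrays and may be technical. Of smooth muscle markers, 7 of 7 listed genes were detected on all arrays, which cannot tell uterus from myometrium because both hold smooth muscle.

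Chemokines are small secreted proteins that guide leukocytes through gradients, and a few, such as CXCL16 and CX3CL1, are also made as membrane-bound forms. They are grouped by the spacing of their first cysteines into CC, CXC, C and CX3C families, and they act through G protein-coupled receptors on the responding cells. In the pregnant uterus chemokines are known to set which leukocytes enter the decidua, and leukocyte entry into the myometrium and cervix is described around labour.

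More of the measured chemokine and receptor genes were higher than lower at day 18.5. A probe was kept where its detection p-value was under 0.05 on at least 3 of the 6 arrays, and each gene was read by its brightest kept probe. By that rule 43 of the 73 probes and 31 of the 53 genes were measured. The near-identical copies Ccl21a and Ccl21c count as separate genes in all counts here, although each probe may read both. In the limma fit over all 14081 genes, 15 of the 31 were higher and 4 were lower at day 18.5 after Benjamini-Hochberg adjustment (adjusted p under 0.05), and 12 did not pass. That is 61.3% of the measured members, beside 26.1% of all genes tested (12.6% higher and 13.4% lower). A gene kept only because it was bright on one day had to differ, so the share of members is a description. Among the 25 members detected on all 6 arrays, 13 were higher and 3 lower, beside 24.8% of the 12208 genes detected on all arrays. The median log2 change was 0.50 over the 31 members and 0.02 over all genes. In 21 of the 31 members the 3 values of one day all lay above those of the other, beside 43.2% of all genes. With median scaling in place of quantile normalization, which moved the median of all genes to -0.10, the counts were 12 higher and 7 lower. Without replicate 3 of day 18.5, and likewise without replicate 3 of day 15.5, 2 members were lower.

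Ligands and receptors differed in how many could be measured. Of the 35 ligands 25 were measured, and 14 of these were higher and 3 lower, with a median log2 change of 0.59. Of the 18 receptors only 6 were measured, and 1 was higher and 1 lower, with a median of -0.15. Past the test were 68.0% of the measured ligands and 33.3% of the measured receptors, beside 26.1% of all genes tested (12.6% higher and 13.4% lower). The receptor share rests on 6 genes and lay near that of all genes. The difference between the shares of ligands and receptors was not tested.

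**Figure D1:**
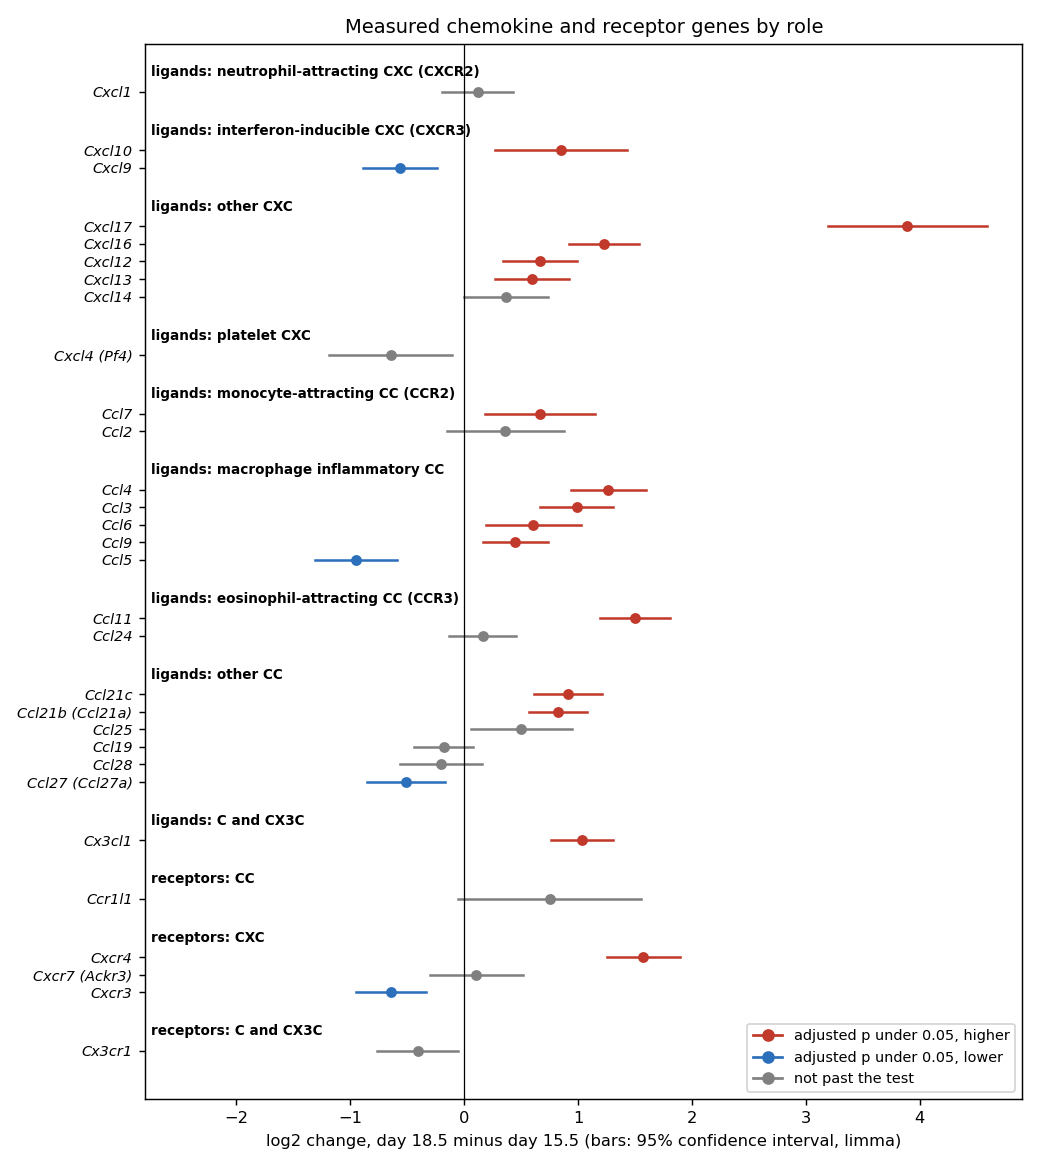
Log2 change between day 18.5 and day 15.5 (x axis, day 18.5 minus day 15.5) of the measured chemokine and receptor genes reported here, grouped by role from top to bottom. Points are limma estimates from 3 arrays per day, bars are 95% confidence intervals, red marks genes higher and blue genes lower past an adjusted p of 0.05, and grey marks those that did not pass. Cxcl17 lies apart at 3.89, and Ccl5 has the lowest estimate, -0.95. The estimates of Ccl3 and Cxcr3, each undetected on one day, are no measured folds.

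Cxcl17, named as a chemokine and made by mucosal epithelia, rose. Its probe had deposited, unnormalized signals of 2134, 1893 and 2070 on the day 18.5 arrays, against 352, 206 and 234 on the day 15.5 arrays. The days were far apart, and the gene was detected on all 6 arrays. On the normalized scale this probe read 11.01, 11.00 and 11.32 at day 18.5 and 7.87, 7.06 and 7.39 at day 15.5, a log2 change of 3.67 ± 0.20 (SE; adjusted p = 5.05e-06 over all probes). A brighter probe of the same RefSeq gene, which the deposited table lists as BC024561 and which is therefore no member, stands for the gene in the fit over genes. It gave a log2 change of 3.89 ± 0.31 (SE), or 14.8-fold (adjusted p = 3.68e-05), with a day 15.5 spread of 0.75 (SD, n = 3) and a day 18.5 spread of 0.08. Epithelial marker genes rose as well: 5 of 6 measured, among them the tight junction gene Cldn4 (6.51-fold) and the keratin Krt19 (4.27-fold), while Epcam was not measured. The signals of this marker list, summed on the linear normalized scale with its offset, ran from 23350 to 25930 on the day 18.5 arrays and from 9122 to 13750 on the day 15.5 arrays. Their part in the Cxcl17 result was not tested. In bulk RNA, more cells of a type and more RNA per cell cannot be told apart.

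The chemokines with a membrane-bound form rose together. Cxcl16, which binds CXCR6, had log2 signals of 10.86, 10.84 and 11.10 at day 18.5, against 9.91, 9.54 and 9.67 at day 15.5. The days did not overlap, and the rise was 2.34-fold (log2 change 1.23 ± 0.14, SE; adjusted p = 0.000256). Its fainter probe rose by 1.41 ± 0.22. Cx3cl1, the only CX3C chemokine and the ligand of CX3CR1, read 9.37, 9.32 and 9.34 at day 18.5, against 8.41, 8.13 and 8.38 at day 15.5. The day 18.5 arrays were nearly equal, and the gene rose 2.05-fold (log2 change 1.04 ± 0.12, SE; adjusted p = 0.000315). Of the receptors of these ligands, Cxcr6 was detected on no array. Cx3cr1 had 7.77, 7.77 and 7.35 at day 18.5, against 8.12, 8.17 and 7.84 at day 15.5. Its values lay lower on each day 18.5 array without overlap, but the change of -0.41 ± 0.16 (log2, SE) did not pass (adjusted p = 0.0874), except with median scaling (-0.57, adjusted p = 0.0343). Of the sheddases that release both ligands from the membrane, Adam17 changed by 0.13 (adjusted p = 0.429) and Adam10 was not measured.

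Cxcl12 and its receptor Cxcr4, which retain haematopoietic and other cells in tissues, were both higher at day 18.5. Cxcr4 had log2 signals of 8.85, 8.50 and 8.50 at day 18.5, against 7.17, 7.09 and 6.89 at day 15.5. The days lay far apart, and the rise was 2.97-fold (log2 change 1.57 ± 0.14, SE; adjusted p = 7.21e-05). Cxcl12 read 12.07, 12.05 and 11.67 at day 18.5, against 11.19, 11.20 and 11.40 at day 15.5. Replicate 3 was the lowest array of day 18.5 and the highest of day 15.5, yet the days did not overlap and the gene rose 1.59-fold (log2 change 0.67 ± 0.14, SE; adjusted p = 0.00844). The other detected Cxcl12 probes rose by 0.94 ± 0.15 and 1.00 ± 0.13, and the remaining pair was detected on no array. Cxcr7, renamed Ackr3, is an atypical receptor that takes up CXCL12 without G protein signalling. It read 7.23, 7.54 and 7.68 at day 18.5 and 7.56, 7.02 and 7.55 at day 15.5, and the change of 0.11 had a 95% confidence interval of -0.30 to 0.52 (adjusted p = 0.708).

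**Figure D2:**
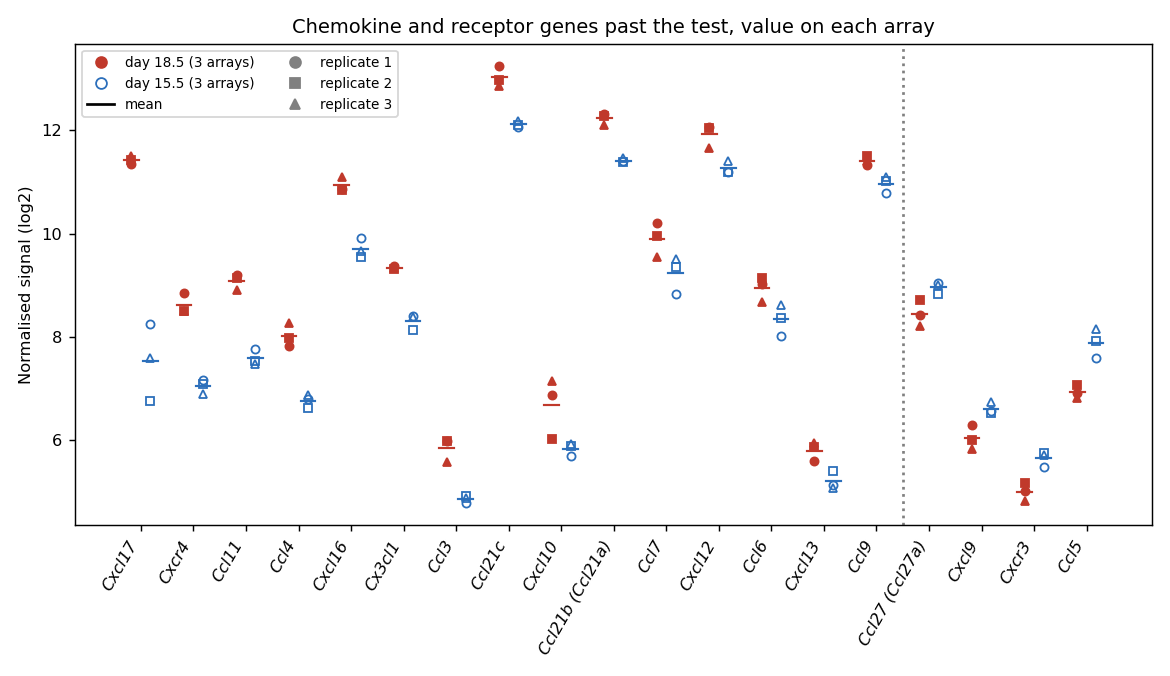
Normalised log2 signal (y axis) on each of the 6 arrays for the 19 chemokine and receptor genes past an adjusted p of 0.05, ordered by log2 change, with filled red points for day 18.5 and open blue points for day 15.5 (3 arrays each) and a line at each mean. In all 19 genes the 3 values of one day lie above all 3 of the other, by least in Ccl7 and then in Ccl6 and Cxcl10. These genes were picked by a test on the same values, so their separation is no support, and 43.2% of all genes showed it. The 4 genes right of the dotted line are lower at day 18.5. Cxcl17 is drawn from the probe that the deposited table lists as BC024561.

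The macrophage inflammatory CC chemokines went up with the exception of Ccl5. Ccl4 had log2 signals of 7.82, 7.99 and 8.28 at day 18.5, against 6.79, 6.62 and 6.87 at day 15.5. It rose 2.40-fold (log2 change 1.27 ± 0.15, SE; adjusted p = 0.000297), and its fainter probe was detected on all 3 arrays of day 18.5 and on none of day 15.5. Ccl3, its closest relative, read 5.98, 5.99 and 5.58 at day 18.5, against 4.78, 4.93 and 4.88 at day 15.5. It was detected on all 3 arrays of day 18.5 and on none of day 15.5, so only a bound can be given: the mean of day 18.5 was at least 1.32-fold higher than the lowest signal of any detected probe on the day 15.5 arrays (adjusted p = 0.001). Ccl9 and Ccl6, mouse chemokines of the myeloid lineage, rose by 0.45 ± 0.12 (adjusted p = 0.0275) and 0.61 ± 0.18 (adjusted p = 0.0387).

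Both of these last calls were fragile. That of Ccl9 was lost without replicate 1 (adjusted p = 0.0742) or 2 (0.0523) of day 15.5, without replicate 2 (0.108) or 3 (0.0599) of day 18.5, and with median scaling (0.0661). That of Ccl6 was lost without replicate 1 (adjusted p = 0.104) or 2 (0.0875) of day 15.5 and without replicate 1 (0.0975) or 2 (0.126) of day 18.5. Ccl6 also failed with median scaling (adjusted p = 0.0936), the authors' values (0.0572), no detection filter (0.0892) and the replicate block (0.064).

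Ccl5, a chemokine that cytotoxic lymphocytes store and release, fell. It read 6.91, 7.08 and 6.81 at day 18.5, against 7.59, 7.92 and 8.15 at day 15.5. The days were clearly separate, and the fall was 1.93-fold (log2 change -0.95 ± 0.16, SE; adjusted p = 0.00236). In RefSeq the measured members Ccl5, Ccl9, Ccl6, Ccl3 and Ccl4 follow each other in this order on chromosome 11, with Ccl5 at one end. NK cell markers were lower at day 18.5 too: of 5 measured, 4 fell, among them perforin, Prf1 (9.16-fold), and the receptor Klrg1 (8.36-fold), whereas the defining markers Ncr1 and Gzmb were not measured. Their summed signals ran from 619 to 813 at day 18.5 and from 5348 to 6694 at day 15.5. Of 4 T cell markers Cd3g fell 2.66-fold and Cd3d, Cd3e and Lck did not pass. The part of these cells in the Ccl5 result was not tested. Macrophage markers had 8 members measured, with Mrc1 and Mertk lower and 6 not past the test. Their summed signals overlapped, from 38500 to 42690 at day 18.5 and from 35640 to 43140 at day 15.5. The lysozyme genes Lyz1 and Lyz2 (mean log2 signals of 14.6 and 13.3 at day 18.5) make up most of these sums, which say little of the other markers.

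Ccr1l1 is a relative of the receptor gene Ccr1, which serves several of these ligands. It ranged from 5.75 to 7.17 at day 18.5 and from 5.04 to 5.87 at day 15.5 (adjusted p = 0.157). Ccr1 was detected on no array.

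Ccl11, or eotaxin, which draws eosinophils through CCR3, rose. It read 9.20, 9.15 and 8.91 at day 18.5, against 7.77, 7.53 and 7.47 at day 15.5. The rise was 2.83-fold (log2 change 1.499 ± 0.134, SE; adjusted p = 7.14e-05), and the second Ccl11 probe rose by 1.48 ± 0.16. Ccl24, another eotaxin, had signals of 6.59, 6.51 and 6.46 at day 18.5 and 6.39, 6.14 and 6.53 at day 15.5. It changed by 0.16, with a 95% confidence interval of -0.13 to 0.46 (adjusted p = 0.406). The eosinophil receptor Ccr3 and the symbol Ccl26 were detected on no array. Of eosinophil markers, the receptor gene Il5ra fell 2.10-fold, the granule ribonuclease gene Ear2 changed by -0.06, and Prg2, Epx and Siglecf were not measured. Mast cells can also respond to eotaxin, and 4 of 6 of their markers were higher at day 18.5, led by Kit (3.08-fold) and the tryptase Tpsb2 (2.51-fold). The remaining markers did not pass: Fcer1a changed by 0.50 (log2, adjusted p = 0.0576) and Cpa3, the brightest of the list, by 0.21 (adjusted p = 0.404). The summed mast cell signals ran from 6253 to 6574 at day 18.5 and from 3345 to 4733 at day 15.5, and their part in the Ccl11 result was not tested.

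The monocyte-attracting ligands of CCR2 showed smaller differences. Ccl7 read 10.20, 9.95 and 9.55 at day 18.5, against 8.83, 9.35 and 9.52 at day 15.5. Replicate 3 of either day lay almost level, and the rise was 1.59-fold (log2 change 0.67 ± 0.21, SE; adjusted p = 0.0484). Its fainter probe rose by 0.59 ± 0.16. The Ccl7 call was lost without replicate 1 (adjusted p = 0.129) or 2 (0.0882) of day 15.5 and without replicate 1 (0.142) or 2 (0.116) of day 18.5. It was also lost with median scaling (adjusted p = 0.0899), the authors' values (0.0728), no detection filter (0.119) and the replicate block (0.0875). Ccl2, detected on 2 of the day 18.5 arrays and 1 of the day 15.5 arrays, changed by 0.36 ± 0.23 (adjusted p = 0.281). It passed only without replicate 3 of day 18.5 (0.62, adjusted p = 0.0405). The receptor Ccr2 was detected on no array.

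The CCR7 ligand Ccl21, which leads dendritic cells and T cells into lymphatic vessels and lymph nodes, rose. Ccl21a, Ccl21b and Ccl21c are near-identical copies, and each probe may read all of them. The probe listed as Ccl21b, whose accession is now named Ccl21a, had 12.31, 12.29 and 12.11 at day 18.5, against 11.41, 11.38 and 11.46 at day 15.5. Its rise was 1.77-fold (log2 change 0.82 ± 0.11, SE; adjusted p = 0.000794). The brighter Ccl21c probe read 13.25, 12.98 and 12.86 at day 18.5, against 12.06, 12.11 and 12.18 at day 15.5. It rose 1.88-fold (log2 change 0.91 ± 0.13, SE; adjusted p = 0.00101), and the other Ccl21c probe by 0.58 ± 0.16. Ccl19, the other ligand of CCR7, was detected on 1 array of day 18.5 and 2 of day 15.5 and changed by -0.18 ± 0.11 (adjusted p = 0.285). Ccr7 itself was detected on 2 arrays and was not measured. Lymphatic endothelium, the known source of Ccl21, had 4 markers measured: Reln rose 1.45-fold, Lyve1 changed by 0.48 (adjusted p = 0.056), and Prox1 and Pdpn by -0.06 and -0.05. Their summed signals ran from 10490 to 11240 at day 18.5 and from 7969 to 10790 at day 15.5, and their part in the Ccl21 result was not tested.

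The CXCR3 axis, through which interferon draws activated T and NK cells, did not move as a unit. Cxcr3 itself read 5.03, 5.17 and 4.81 at day 18.5, against 5.48, 5.75 and 5.71 at day 15.5. Its probe passed detection on each day 15.5 array but on none of day 18.5, and the later level was at least 1.16-fold lower (adjusted p = 0.00782). Among its ligands, Cxcl9 had 6.29, 6.004 and 5.84 at day 18.5, against 6.57, 6.52 and 6.74 at day 15.5. It fell 1.48-fold (log2 change -0.57 ± 0.14, SE; adjusted p = 0.0182). Cxcl10 read 6.88, 6.02 and 7.15 at day 18.5, against 5.69, 5.89 and 5.93 at day 15.5. Replicate 2 of day 18.5 lay close to the day 15.5 arrays, and the rise was 1.80-fold (log2 change 0.85 ± 0.26, SE; adjusted p = 0.0387). The other Cxcl10 probe was detected on no array, so the Cxcl10 values rest on a single probe. Cxcl11 was detected on no array either.

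The call of Cxcl10 did not survive the removal of 5 of the 6 arrays in turn, with adjusted p = 0.103, 0.0924 and 0.0728 without replicates 1, 2 and 3 of day 15.5 and 0.103 and 0.113 without replicates 1 and 3 of day 18.5. It was also lost with the authors' values (adjusted p = 0.0538), no detection filter (0.109) and array weights (0.14). That of Cxcl9 was lost without replicate 3 of day 15.5 (adjusted p = 0.0656) and without replicate 2 (0.0616) or 3 (0.0567) of day 18.5. Of the lymphocyte markers given above, 4 of 5 NK genes and 1 of 4 T cell genes were lower at day 18.5, as were Cxcr3 and Cxcl9, and their part was not tested.

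Cxcl9 and Cxcl10 are neighbours on chromosome 5, and their start regions are shown because the genes changed in opposite directions. RefSeq windows of build GRCm38.p6, from 250 bases before to 50 bases after the start, were searched on both strands for CACCTG, the core bound by ZEB1 and ZEB2, for the core of the interferon-stimulated response element, and for the NF-kappaB motif. All matches are in capitals, and each sequence runs 5′ to 3′ on the strand of its gene. The windows lie on the minus strand at chr5:92328030-92328329 for Cxcl9, chr5:92348840-92349139 for Cxcl10 and chrX:101734098-101734397 for Cxcr3.
Cxcl9: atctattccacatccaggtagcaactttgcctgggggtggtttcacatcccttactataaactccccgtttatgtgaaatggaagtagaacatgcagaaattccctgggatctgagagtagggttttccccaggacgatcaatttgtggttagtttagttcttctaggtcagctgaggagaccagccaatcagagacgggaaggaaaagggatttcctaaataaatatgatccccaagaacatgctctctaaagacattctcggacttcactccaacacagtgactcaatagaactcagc
Cxcl10: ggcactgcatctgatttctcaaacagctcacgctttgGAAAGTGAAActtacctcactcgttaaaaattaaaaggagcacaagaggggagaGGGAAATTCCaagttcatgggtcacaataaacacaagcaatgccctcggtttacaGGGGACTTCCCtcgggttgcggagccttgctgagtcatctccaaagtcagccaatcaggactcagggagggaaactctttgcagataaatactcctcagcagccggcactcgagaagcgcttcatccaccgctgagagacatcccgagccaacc
Cxcr3: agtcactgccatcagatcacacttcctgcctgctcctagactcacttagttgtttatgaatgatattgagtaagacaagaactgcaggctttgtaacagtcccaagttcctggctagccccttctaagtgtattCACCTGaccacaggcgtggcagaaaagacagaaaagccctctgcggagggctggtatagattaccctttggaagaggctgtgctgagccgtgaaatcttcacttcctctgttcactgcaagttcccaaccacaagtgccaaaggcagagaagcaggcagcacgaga

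The Cxcl10 window held the interferon core at bases 38 to 47 and the NF-kappaB motif at bases 92 to 101 and, in overlapping frames, at bases 147 to 157. None of these motifs was found in the Cxcl9 window, which says only that these letters are not in it. The Cxcr3 window held CACCTG at bases 135 to 140. Of all 32851 windows, 20.2% held CACCTG, 3.44% the interferon core and 8.46% the NF-kappaB motif. The windows matched 38 of the 53 symbols and 21 of the 31 measured genes. In the 24 windows of these measured genes, 5 held CACCTG, 3 the interferon core and 4 the NF-kappaB motif. A match is a description of letters and not of binding.

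The remaining CXC ligands gave mixed values. Cxcl13, which guides B cells through CXCR5, was detected on all 3 arrays of day 18.5 and on 1 of day 15.5, with 5.59, 5.87 and 5.94 against 5.13, 5.41 and 5.08. It rose by 0.59 ± 0.14 on the log2 scale (adjusted p = 0.0148). The call ended without replicate 3 of day 15.5 (adjusted p = 0.0552) and without replicate 2 (0.0552) or 3 (0.0503) of day 18.5. Cxcl14, a chemokine of epithelium and stroma, was read by a pair of probes that disagreed. The brighter gave 10.21, 9.88 and 9.88 at day 18.5 and 9.35, 9.63 and 9.88 at day 15.5 and did not pass (0.36 ± 0.16, adjusted p = 0.136). The other gave 9.86, 9.62 and 10.00 at day 18.5 and 8.41, 9.02 and 8.95 at day 15.5, a rise of 1.03 ± 0.18 (adjusted p = 0.00288 over all probes). With the mean of its probes Cxcl14 rose by 0.70 (adjusted p = 0.0116). Cxcl1, which draws neutrophils through CXCR2, had 7.60, 7.44 and 7.19 at day 18.5 and 7.25, 7.41 and 7.20 at day 15.5. The days overlapped, and its change of 0.12 had a 95% confidence interval of -0.19 to 0.43 (adjusted p = 0.567).

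Platelet factor 4, listed as Cxcl4 and now named Pf4, is stored in platelets and is also made by some macrophages. It read 9.90, 10.24 and 9.24 at day 18.5, against 10.18, 10.57 and 10.57 at day 15.5. Replicate 3 of day 18.5 was the lowest, and replicate 2 lay within the day 15.5 range. The change of -0.64 ± 0.24 (log2, SE) did not pass (adjusted p = 0.0794). It passed without replicate 2 of day 18.5 (-0.87, adjusted p = 0.0245), with median scaling (-0.77, adjusted p = 0.0413), without background correction (-0.61, adjusted p = 0.044) and with an offset of 50 in either background method (-0.62 and -0.61, adjusted p = 0.0485 and 0.044). Of 3 platelet markers measured, Treml1 rose 1.85-fold and Itga2b and Gp9 did not pass.

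Of the homeostatic CC ligands of skin and mucosa, Ccl27 fell. Its probes are listed as Ccl27 and now named Ccl27a, a gene with near-identical copies that the probes may also read. The brighter read 8.43, 8.72 and 8.20 at day 18.5, against 9.04, 8.83 and 9.001 at day 15.5. The fall was 1.42-fold (log2 change -0.51 ± 0.15, SE; adjusted p = 0.0357), and the other probe fell by 0.48. The Ccl27 call failed when 5 of the 6 arrays were left out in turn, and with no detection filter (adjusted p = 0.0651), array weights (0.0621) and the replicate block (0.0649). Without replicates 1, 2 and 3 of day 15.5 the adjusted p was 0.091, 0.0522 and 0.0967, and without replicates 1 and 3 of day 18.5 it was 0.0891 and 0.101. Ccl28, which shares the receptor CCR10 with CCL27, changed by -0.20 ± 0.16 (adjusted p = 0.39). Ccl25, a chemokine of thymus and gut, read 8.05, 8.005 and 7.30 at day 18.5, against 7.36, 7.32 and 7.16 at day 15.5. Replicate 3 of day 18.5 fell within the day 15.5 range, and the change of 0.50 ± 0.20 did not pass (adjusted p = 0.093). It passed without that array (0.74, adjusted p = 0.00517), with array weights (0.66, adjusted p = 0.0179) and on averaging its probes (0.64, adjusted p = 0.048), of which the fainter rose by 0.77 ± 0.22.

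**Figure D3:**
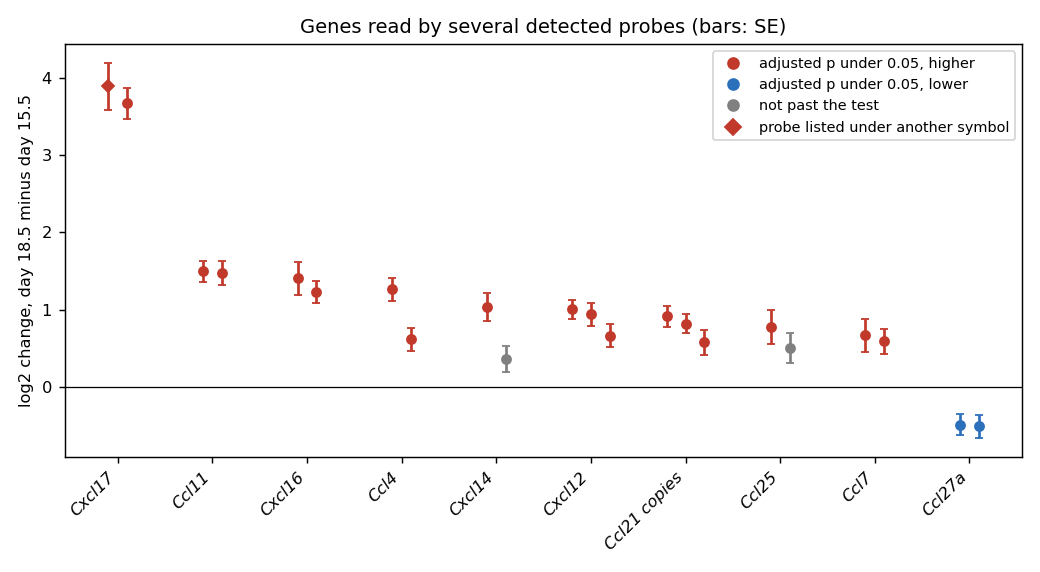
Log2 change (y axis, day 18.5 minus day 15.5, error bars SE) of each detected probe for the genes reported here that were read by more than 1, with probes of the Ccl21 copies shown together and colour giving the call in the fit over all probes. All probes of a gene point the same way, the lower Ccl4 probe being undetected at day 15.5, but Cxcl14 (0.36 and 1.03) and Ccl25 (0.50 and 0.77) have one probe past the test and one not. The diamond is the Cxcl17 probe listed as BC024561.

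The other 22 symbols could not be measured. Cxcl15, Ccl20 and Ccr7 were detected on 2 arrays and Ccr6 on 1. The ligands Ccl1, Ccl17, Ccl22, Ccl26, Cxcl2, Cxcl3, Cxcl11 and Xcl1 and the receptors Ccr1, Ccr2, Ccr3, Ccr4, Ccr8, Ccr9, Ccr10, Cxcr5, Cxcr6 and Xcr1 were detected on no array. Lack of detection is no proof of lack of expression: a pair of Cxcl12 probes was undetected although Cxcl12 was measured by 3 others. At probe level, 24 of the 43 kept probes were higher and 5 lower, beside 11.6% and 13.2% of all 20701 kept probes. In the authors' deposited table, 22 of the 43 had a false discovery rate under 0.05, with 19 ratios above 1 and 3 below. All 22 were among the 29 probes called here, in the same direction, which is no independent support because the arrays are the same. These counts leave out the probes that were not kept. Among those, Cxcl15 had a deposited ratio of 0.323 (false discovery rate 0.0358), and its 2 detections were at day 15.5.

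Of 11 further genes of the chemokine system under other names, 8 were measured, including the members Pf4 and Ackr3. Ppbp, the neutrophil-attracting platelet chemokine CXCL7, rose 1.80-fold (adjusted p = 0.00461), and Ackr2, a decoy receptor that clears inflammatory CC chemokines, rose 1.61-fold (adjusted p = 0.00278). Ackr1, a chemokine-binding receptor of venules and red cells, fell 1.75-fold (adjusted p = 0.00173). Ccrl2, Ackr4 and Rarres2 did not pass, and Cxcr1, Cxcr2 and Cmklr1 were not measured. The median of the list was 0.08, and 37.5% of those measured passed, beside 26.1% of all genes tested. Genes of signalling downstream of the receptors had 22 of 30 measured, of which 2 rose, 5 fell and 15 did not pass, with a median of -0.28. The share past the test was 31.8%. Elmo1, which links receptors to RAC activation, fell 2.56-fold (adjusted p = 0.000278), the inhibitory G protein gene Gnai1 fell 1.98-fold (adjusted p = 0.00161), and the kinase gene Jak3 rose 1.62-fold (adjusted p = 0.00503). Of 9 proteases that cut or release chemokines 7 were measured: Mmp12, the macrophage elastase, was detected at day 18.5 only and was at least 2.52-fold higher (adjusted p = 0.00137), Ctsg fell 12.3-fold (adjusted p = 4.01e-05), and 5 did not pass. The median of this list was -0.11, and 28.6% of those measured passed.

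Genes that induce or regulate chemokine transcription were read as a further list. Of 17 listed, 14 were measured, 4 rose, 1 fell and 9 did not pass, with a median of 0.17. That is 35.7% of those measured, beside 26.1% of all genes tested. Il1a, the gene of the alarmin interleukin-1 alpha, fell 6.40-fold (adjusted p = 1.77e-05), while Irf7, an interferon regulatory factor, rose 1.64-fold (adjusted p = 0.00302) and Nfkbiz, an inducible NF-kappaB cofactor, 1.49-fold (adjusted p = 0.00782). Irf1, another interferon regulatory factor, rose 1.38-fold (adjusted p = 0.0218). Tnf, Il6 and Ifng were not measured.

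Other cell types differed between the days on the same arrays. Trophoblast genes, which are fetal, had 4 of 8 measured and 3 higher, and their summed signals ran from 3928 to 12330 at day 18.5 and from 127 to 253 at day 15.5. Of 6 endothelial markers 3 fell, led by Cdh5 (3.24-fold), and of 7 fibroblast markers 3 fell, led by Col1a1 (3.64-fold). Of 3 measured decidual markers, Prl8a2 and Cryab fell, and of 6 red cell genes 1 rose and 2 fell. Neutrophil markers had 4 measured, of which S100a9 rose 1.59-fold and the others did not pass. Of 2 dendritic cell markers measured, H2-Aa rose, detected on 2 of the day 15.5 arrays with a spread there of 1.025 (SD). The other, Cd74, changed by -0.002 (log2, adjusted p = 0.993). The only measured B cell marker, Cd79b, did not pass. All counts of marker genes stand beside 26.1% of all genes past the test. The part of these cells in the chemokine values was not tested. The arrays detected between 43.6% and 46.5% of the probes, with median unnormalized signals from 75.8 to 104.7, and all lay on 1 chip, on which each day filled its own stretch of positions, so that day and position cannot be told apart.

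**Figure D4:**
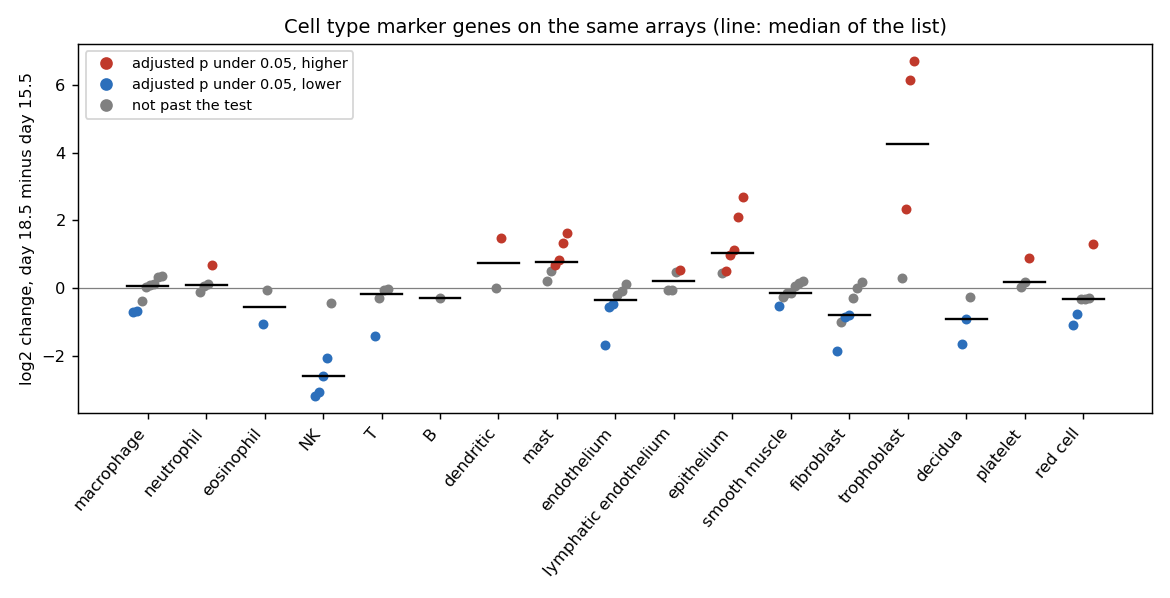
Log2 change (y axis, day 18.5 minus day 15.5) of each measured marker gene, by cell type (x axis), with red and blue for genes higher or lower past an adjusted p of 0.05, grey for those not past it, and a black line at the median of each list. The NK list has the lowest median, -2.61, while the epithelial median is 1.04 and the macrophage median 0.05. Estimates of genes undetected on one day, among them trophoblast genes, are no measured folds.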

How the data were processed

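The deposited unnormalized table gives, for 45281 probes on 6 arrays, the intensity averaged over beads with its detection p-value, per the file headers. The authors' normalized intensities are on a linear scale, and their sorted values differ by at most 3.89 units between arrays; scanner software and background method are not given in the sources used here. A comparison table that the authors deposited also has a ratio (day 18.5 divided by day 15.5) and a false discovery rate (q-value), per the file headers. Its annotation block, with ratios, stands 1394 lines off its probes; moved by that number, 43887 of 43887 symbols matched, against 1 in place. All 100% of the ratios then equalled the ratio of geometric means of the authors' intensities within a relative tolerance of 1e-05.

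Probes were named through RefSeq (GRCm38.p6), 26889 by accession, 5446 by symbol and 3934 by synonym, and 9012 kept the name in the file. The neqc function (limma 3.58.1, R 4.3.3) took background from the detection p-values, added an offset of 16, applied quantile normalization and returned log2 values. Probes detected (p under 0.05) on at least 3 of 6 arrays were kept, 20701 in all, and 14081 genes were read by their brightest kept probe. The comparison of days used lmFit and eBayes with no block, two-sided, with Benjamini-Hochberg adjustment over all genes. The fit was tested on simulated data. Where every array of a day missed a gene, its fold is a bound: the mean of the day that detected it, against the mean floor of the other day, the floor of an array being the higher of its faintest detected signal and the probe itself. Every measured member is named except 1, which, like 1 further motif searched, is not reported here, and of the other lists the genes past the test with the 3 smallest adjusted p values; a few more are named where a count was small or a member stands beside them, after their values were seen. Members and lists were chosen with earlier results of these data known. Alternatives changed background (uncorrected, offset 50, or normexp together with offset 50), scaling (median), both at once (the authors' values), the filter (none, or detection p under 0.01 on every array), probe handling (averaged per gene, or each on its own, or named by deposited symbol), the variance model (trended and robust), weights per array, a replicate block, and the omission of each array. The precision is set by 3 arrays per day.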

Additional observations from a re-analysis of the deposited data

How the results depend on the processing

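Of the 582 values of measured members recomputed under 19 alternatives, 43 lost and 13 gained the call, none changed sign with a call, and 3 uncalled values changed sign. Several alternatives, among them no filter, the trended variance and the replicate block, leave the log2 change itself unaltered, so no sign could change there. Of the 19 called genes, Ccl11, Ccl21a, Ccl21c, Ccl3, Ccl4, Ccl5, Cx3cl1, Cxcl12, Cxcl16, Cxcl17, Cxcr3 and Cxcr4, 12 in all, passed under every alternative that measured them. The others, Ccl27a, Ccl6, Ccl7, Ccl9, Cxcl9, Cxcl10 and Cxcl13, did not, as given with their values above. Ccl21a and Ccl21c may be the same measurement, because each probe may read both copies. Members lower at day 18.5 numbered 7 with median scaling. Leaving out 1 array gave 11 to 14 members higher, 2 to 4 lower and 2710 to 3418 genes called in all, against 15, 4 and 3669; the 2 lower members came without replicate 3 of day 15.5 and without replicate 3 of day 18.5. With the replicate number as a block, 13 members were higher, 3 lower and 3217 genes called. Deviations of same-numbered arrays from their day means had correlations of -0.165, 0.138 and -0.0708. They were not compared with arrays of unlike number, so whether same-numbered arrays share any handling was not tested. Single probes gave 5128 calls among all kept probes, with 15 members higher and 4 lower. Folds of Ccl3, Cxcr3, Cxcl13 and Ccl2, which lie near the detection limit, depend on the treatment of background: the log2 change of Ccl3 ran from 0.54 to 1.35 and that of Cxcr3 from -0.96 to -0.35.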
